A study of Mus musculus with 2 samples.

Results

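The genes described here make the small noncoding RNAs of the nucleolus and the Cajal body, a nuclear compartment where small RNA particles mature, together with the minor spliceosomal RNAs and the RNA parts of RNase P, RNase MRP and telomerase. They were taken from the annotated long noncoding RNA (lncRNA) table as every RefSeq noncoding transcript whose mouse symbol began with Snora, Snord, Scarna or Rnu and a digit, or was Rmrp, Rpph1 or Terc. The rule gave 146 transcripts of 126 symbols among 37072 entries, 0.394% of the table. The rule used names only and no measured value, but it was set with earlier results of these data known.

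RNA-seq had been run on primary hepatocytes from wild-type male C57BL/6J mice given intraperitoneal oil (the control) or carbon tetrachloride, CCl4, a hepatotoxin that causes liver fibrosis on repeated injection. CCl4 was given as a 20% solution in mineral oil at 2.5 ml per kg, for 8 weeks per the labels, although the methods of the study describe a shorter course for its mice, which were 5 weeks old when obtained. Hepatocytes were isolated by enzymatic perfusion and density centrifugation, a preparation that can retain other liver cells, and each group was 1 library from an unstated number of mice. The comparison asks how the levels of these RNAs differed between hepatocytes of fibrotic and control liver, and with 1 library per group there is no replicate check behind any difference below.

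C/D box small nucleolar RNAs (Snord) base-pair with ribosomal RNA and direct methylation of the ribose, and H/ACA box small nucleolar RNAs (Snora) direct the change of uridine to pseudouridine. Most mammalian members of both families are cut out of introns of host genes, many of which encode ribosomal proteins or translation factors. Small Cajal body RNAs (Scarna) guide the same modifications on spliceosomal RNAs, Rnu11 and Rnu12 act in the minor spliceosome, and Rnu7 matures histone mRNA ends. Rmrp and Rpph1 are transcribed by RNA polymerase III and form the RNA cores of RNase MRP, which cuts precursor ribosomal RNA, and of RNase P, which trims tRNA precursors. Terc is the template RNA of telomerase and ends in an H/ACA domain.

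The deposited values were RPKM, read counts scaled to transcript length and library size, and values under 1 RPKM had been set to 0. Of the 146 transcripts, 100 were listed above 0 in both libraries, 3 only in the oil library, 5 only in the CCl4 library and 38 in neither. The depth was recovered from short genes, nearly all of whose RPKM were whole multiples of the value of 1 read. The smallest library total that met this was 57992537 reads for oil and 64655534 for CCl4. Whether these totals count all reads or only mapped ones was not determined. Log2 ratios below are CCl4 over oil with 0.1 RPKM added to each value, and a member was called past the fold at a log2 ratio of 1 or more in size. Intervals are exact 95% intervals on the recovered reads and cover counting error only.

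The 2 libraries also differed in cell type markers, and the part of these differences in the values below was not tested. Hepatocyte markers were lower in the CCl4 library, with a median log2 ratio of -1.02 over 6 genes listed in both and 3 of the 6 past the fold, although albumin stayed abundant, at 8656 RPKM in oil and 6476 in CCl4. All 8 stellate cell markers listed in both libraries were past the fold upward, with a median log2 ratio of 3.21, and their list summed to 76.5 RPKM in oil and 851 in CCl4. Of the Kupffer cell markers, Clec4f was at 283 RPKM in oil and 255 in CCl4 and Adgre1 at 33.1 and 78.8. Their list, 2 of 3 genes matched, summed to 316 and 333 RPKM. The 3 sinusoidal endothelial markers had a median log2 ratio of 0.76 and sums of 307 and 507 RPKM, and the 4 cell cycle genes summed to 5.75 and 31.0 RPKM, with a median log2 ratio of 2.01 over the 3 listed in both. Pdgfrb, Afp and Ccnb1 were listed at 0 in oil only. Fewer cells of a type and less RNA per cell cannot be told apart in such bulk samples.

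Rmrp and Rpph1 dominated the noncoding table in both conditions and were both higher after CCl4. Rpph1 (chr14:50807447-50807771, mm10) had 39433 RPKM in oil and 75383 in CCl4. Rmrp (chr4:43492785-43493059) was listed at 33486 and 72286 RPKM. They ranked 1 and 2 among all 37072 entries in each library, and the entry behind them, an uncharacterized clone transcript, was at 16557 and 17308 RPKM.

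The log2 ratio of Rmrp was 1.11, with a counting interval of 1.106 to 1.115, which put it past the fold. That of Rpph1 was 0.93, with an interval of 0.931 to 0.939, just short of it. The ratios thus fell on either side of the threshold, although they lay within 0.2 log2 units of each other and their intervals did not overlap. Together they took 33.5% of the summed RPKM of the table in oil and 48.2% in CCl4, and 2.20% and 4.44% of the recovered library totals. The rest of the table summed to 144591 RPKM in oil and 158604 in CCl4.

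Terc (chr3:96414437-96414833), the template RNA of telomerase, was far less abundant than either ribonuclease RNA. It was listed at 19.5 RPKM in oil and 29.2 in CCl4, a log2 ratio of 0.58 with an interval of 0.41 to 0.75. Tert, the protein catalytic subunit that Terc serves, was listed at 0 in both libraries, which means under 1 RPKM or no value. Summed over Rmrp, Rpph1 and Terc, the level went from 72939 to 147698 RPKM, a log2 ratio of 1.02 that was set by Rmrp and Rpph1.

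**Figure D1:**
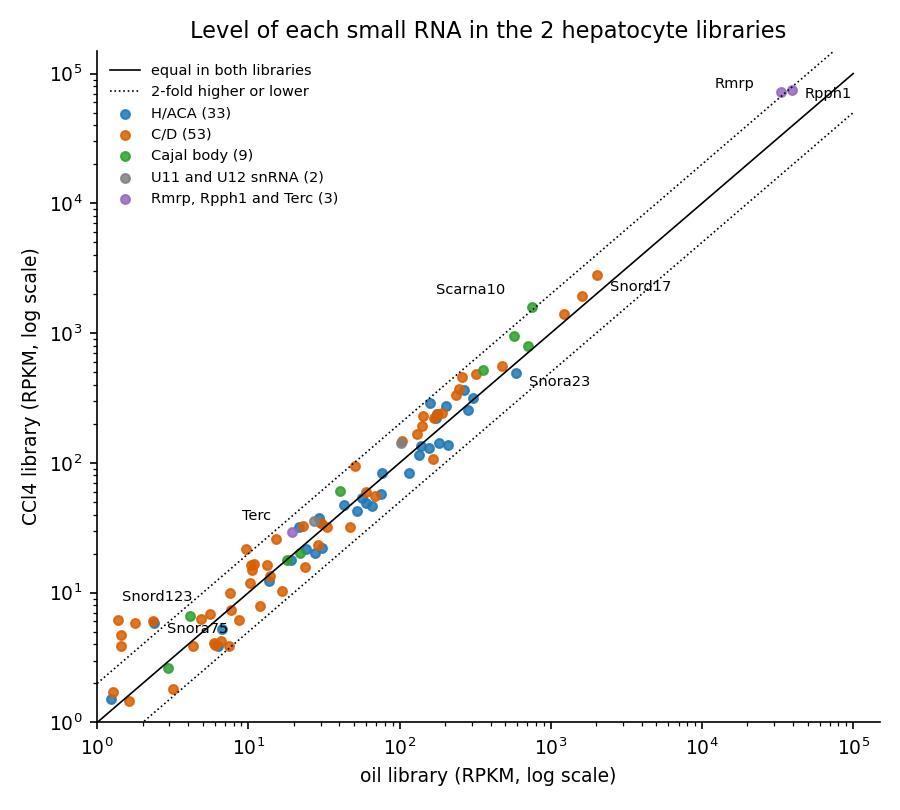
RPKM of the 100 members listed above 0 in both libraries, with the oil library on the horizontal and the CCl4 library on the vertical log axis, 1 point per transcript coloured by class. Rmrp and Rpph1 stand alone at the top right, close to the upper 2-fold line, and the other members follow the equal line down to about 1 RPKM, most of them within the 2-fold lines.

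Across all members the count past the fold was small. Of the 100 members listed in both libraries, 9 were past the fold upward and 0 downward, against 9.38% of the 7615 lncRNA entries listed in both that were higher and 3.47% that were lower. The upward share of the members was close to the share over the whole table and is no result about them. The median log2 ratio was 0.22 over members and 0.26 over lncRNA entries. Over the 14854 mRNA transcripts listed in both it was 0.32, so the median listed transcript read higher in CCl4. RPKM was already scaled to library size, and the source of this shift was not tested.

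Dividing the CCl4 library by the median mRNA ratio of 1.25 left 5 members higher and 3 lower, beside 4.22% and 7.18% of lncRNA entries. The 5 were Snord123, Snord1b, Snord88a, Snord43 and Snord110, each resting on 8 or fewer reads in the oil library. The 3 were Snord99 on 24 and 14 reads, Snord91a on 11 and 7 and Snord69 on 57 and 39. Neither Rmrp nor Scarna10 was past the fold on that scale, at 0.78 and 0.75, and Rpph1 was at 0.61. A log2 ratio between 0 and 0.33 turns negative on that scale, which left 45 members above 0 and 55 below, in place of 59 and 41.

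The classes differed in where their members lay, with H/ACA RNAs on the low side of the table and C/D and Cajal body RNAs above its median as deposited. With 1 median per host gene, since many C/D RNAs share hosts, the C/D median was 0.23, just below that of the table. The 33 H/ACA RNAs listed in both libraries had a median log2 ratio of -0.13, with 13 above 0 and 20 below. The 53 C/D RNAs had a median of 0.34, with 35 above and 18 below, and the 9 Cajal body RNAs had a median of 0.53, with 6 above and 3 below. After division by the median mRNA ratio the medians were -0.45, 0.01 and 0.21, a shift that is nearly the same for every member and cannot alter the order of the classes.

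Counting error alone did not cover the difference of 41 members with an interval above 0 and 16 with an interval below 0, of 96 with recovered reads. As shares these were 42.7% and 16.7%, close to the 43.5% above and 12.3% below 0 among 138 other RefSeq noncoding transcripts with recovered reads. Over all members the counts as deposited are thus no result about them. Of 31 H/ACA RNAs with recovered reads, the interval of 7 lay above 0 and of 11 below 0. Of 51 C/D RNAs, 24 lay above 0 and 5 below, and of the 9 Cajal body RNAs 5 lay above and 0 below. As shares these were 22.6% and 35.5% for H/ACA, 47.1% and 9.8% for C/D and 55.6% and 0% for Cajal body RNAs. The C/D shares were close to those of the other transcripts, so the C/D counts as deposited are no result about that class. Division by the median mRNA ratio put 23.9% and 21.7% of the other transcripts above and below 0. On that scale the counts over all 96 members were 23 above and 37 below. The share below 0 was then larger among the members than among the other transcripts, and this difference was not tested. By class the counts were 4 and 21 for H/ACA, 12 and 14 for C/D and 3 and 2 for Cajal body RNAs. As deposited, summed RPKM went from 3743 to 3799 for H/ACA RNAs, a log2 ratio of 0.02 that becomes -0.30 after the division. It went from 8204 to 10539 for C/D RNAs, a log2 ratio of 0.36, and from 2467 to 3949 for Cajal body RNAs, a log2 ratio of 0.68, and these become 0.036 and 0.35.

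The contrast of H/ACA and C/D RNAs was also present among abundant members only. At a mean of 20 RPKM or more, 27 H/ACA RNAs had a median of -0.13 and 11 of them lay above 0, while 25 C/D RNAs had a median of 0.39 and 20 lay above 0. None of these 25 C/D RNAs was past the fold. The 28 C/D RNAs under 20 RPKM had a median of 0.24 but a wider range, from -0.92 to 2.09, and held all 6 C/D calls. The classes differ in length, with a median of 121 bases for H/ACA and 68 for C/D RNAs, and the part of length in the contrast was not tested beyond a split at 100 bases, above which only 4 C/D RNAs remained, with a median of 0.37 against -0.14 for 30 H/ACA RNAs.

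**Figure D2:**
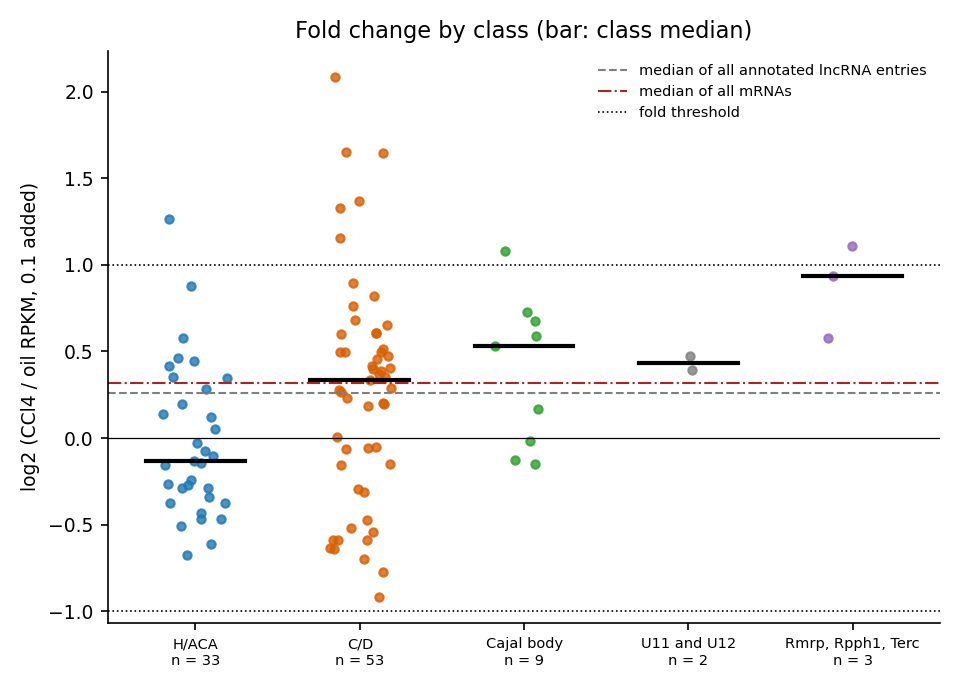
Log2 ratio of CCl4 to oil RPKM with 0.1 added, 1 point per member listed in both libraries, by class, with a thick bar at the class median and lines at the medians of all lncRNA entries (0.26) and all mRNAs (0.32). The H/ACA bar lies at -0.13, below both lines, and the C/D, Cajal body, U11 and U12, and Rmrp, Rpph1 and Terc bars lie above them.

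Among H/ACA RNAs, the most abundant members showed both directions. Snora23 (chr7:110046364-110046547), the highest, was at 590 RPKM in oil and 490 in CCl4, a log2 ratio of -0.27 with an interval of -0.32 to -0.22. Snora81 was at 307 and 318 RPKM and Snora64 at 285 and 258, log2 ratios of 0.05 and -0.14. Snora68 was at 267 and 367 RPKM, Snora52 at 204 and 273 and Snora33 at 159 and 292, log2 ratios of 0.46, 0.42 and 0.88.

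Snora33 (chr10:23785347-23785451), which lies in the ribosomal protein gene Rps12, thus had the largest difference of any abundant H/ACA RNA, with an interval of 0.77 to 0.99. The only H/ACA RNA past the fold was Snora75, which lies in Ncl, the gene of nucleolin, and was listed at 2.38 RPKM in oil and 5.87 in CCl4. Its log2 ratio of 1.27 rested on 16 and 44 reads, with an interval of 0.45 to 2.23. Snora43 at 0.58, Snora62 at 0.45 and Snora68 and Snora52, given above, made up the 6 largest increases.

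On the low side, Snora70 (chrX:74272492-74272620), inside the ribosomal protein gene Rpl10, went from 208 to 136 RPKM, a log2 ratio of -0.61 with an interval of -0.72 to -0.50. Snora30 was lower still at -0.67, but at 6.29 and 3.90 RPKM its interval reached 0.06. Snora16a at -0.51, Snora34 and Snora15 both at -0.47 and Snora20 at -0.43 completed the 6 largest decreases. The intervals of Snora70, Snora16a, Snora34 and Snora15 lay below 0 and those of Snora30 and Snora20 did not.

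The 3 most abundant C/D RNAs stood above all the other nucleolar members in level and were higher in CCl4 as deposited. Snord17 (chr2:144265982-144266202) was at 2032 RPKM in oil and 2816 in CCl4, on 26042 and 40242 reads, a log2 ratio of 0.47. Snord22 (chr19:8725866-8725991), which is needed for maturation of small-subunit ribosomal RNA, was at 1615 and 1945 RPKM, a log2 ratio of 0.27. Snord15b (chr7:99479563-99479707) was at 1231 and 1399 RPKM, a log2 ratio of 0.18, and the ratios of Snord22 and Snord15b fall below 0 after division by the median mRNA ratio.

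The next most abundant C/D RNAs were methylation guides from translation and ribosomal protein genes. Snord37, inside the elongation factor gene Eef2, was at 473 RPKM in oil and 556 in CCl4, a log2 ratio of 0.23 that also falls below 0 after the division. Snord68, inside Rpl13, was at 318 and 484 RPKM, a log2 ratio of 0.61. Snord100, inside Rps12 like Snora33, was at 260 and 460 RPKM, a log2 ratio of 0.82 with an interval of 0.71 to 0.93.

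All 6 C/D RNAs past the fold had a mean under 20 RPKM. Snord123 was listed at 1.37 RPKM in oil and 6.15 in CCl4, a log2 ratio of 2.09 on 7 and 35 reads, with an interval of 0.97 to 3.58. Snord1b and Snord88a both had a log2 ratio of 1.65, on 8 and 29 and on 6 and 22 reads. Snord43 had 1.37 on 4 and 12 reads, and its interval ran from -0.29 to 3.52, so that equal levels were within counting error.

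Snord110 had a log2 ratio of 1.33 on 8 and 23 reads. Snord65 had 1.16 on 32 and 80 reads, with an interval of 0.56 to 1.80, and was the only one of the 6 at 5 RPKM or more in both libraries. The 6 largest decreases were Snord99 at -0.92, Snord91a at -0.78, Snord69 at -0.70, Snord104 and Snord23 both at -0.64 and Snord55 at -0.59. Of these, Snord104, at 167 RPKM in oil and 107 in CCl4 with an interval of -0.81 to -0.48, rested on the most reads, 709 and 506.

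Many entries were listed at 0 in both libraries. The 38 such transcripts included 20 entries of Snord116l1 and Snord116l2 and Snord64, from the imprinted Snhg14 locus whose small RNAs are known from neurons, and Snora35, from the serotonin receptor gene Htr2c. They also included 2 entries of Snora19, Snora36b, Snord118, which acts in large-subunit ribosomal RNA maturation, and Snord14a, Snord14c and Snord14d. Copies of near-identical sequence share reads, and how such reads were counted is not given in the sources used here, so a listed 0 for these families is uncertain. Snord53 had 2 entries under the same RefSeq identifier, 1 listed at 0 in both libraries and the other at 8.62 RPKM in oil and 6.19 in CCl4, so that a listed 0 of an entry need not mean that the RNA was unseen.

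The 8 members listed in only 1 library were all C/D RNAs near the limit. Snord42b was at 3.09 RPKM in CCl4, and Snord90, Snord72, Snord88c and Snord45b were each under 2 RPKM there. Snord92, Snord98 and Snord73a were listed only in oil, each under 2 RPKM. No fold is given for these, since a listed 0 may hide a value just under 1 RPKM.

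The small Cajal body RNAs were all detected, and the 5 most abundant were higher in CCl4 as deposited. Scarna10 (chr6:125186361-125186431) was at 753 RPKM in oil and 1592 in CCl4, on 3100 and 7309 reads, a log2 ratio of 1.08 with an interval of 1.02 to 1.14. It was the most abundant of the class in both libraries and the only one past the fold. Scarna2 (chr3:108554342-108554402) was at 569 and 944 RPKM, a log2 ratio of 0.73 with an interval of 0.65 to 0.81.

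Scarna13 was at 356 RPKM in oil and 515 in CCl4, a log2 ratio of 0.53, and Scarna17 at 40.3 and 60.6 RPKM, a log2 ratio of 0.59. Scarna6 (chr1:87784571-87784818) was at 702 and 790 RPKM, a log2 ratio of 0.17 with an interval of 0.13 to 0.21, which becomes -0.16 after division by the median mRNA ratio. It was close to Scarna10 in oil and below both Scarna10 and Scarna2 in CCl4. The intervals of Scarna10, Scarna2, Scarna13 and Scarna6 did not overlap each other, so these 4 guides differed in ratio by more than counting error.

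The other 4 had intervals that spanned 0. Scarna3a was at 21.9 and 20.1 RPKM and Scarna3b at 17.9 and 17.7, log2 ratios of -0.13 and -0.02. Scarna9 was at 4.11 and 6.63 RPKM on 10 and 18 reads, and Scarna8 at 2.92 and 2.62 RPKM. By length, the 4 Cajal body RNAs annotated under 100 bases had a median of 0.70, and the 5 of 100 bases or more had -0.02.

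Of the spliceosomal members, only the minor spliceosome RNAs were listed. Rnu12 (chr15:83149645-83149794) was at 102 RPKM in oil and 142 in CCl4, a log2 ratio of 0.47 with an interval of 0.35 to 0.60. Rnu11 (chr4:132270079-132270186) was at 27.1 and 35.7 RPKM, a log2 ratio of 0.39 with an interval of 0.11 to 0.68. Their ratios differed by less than counting error. Rnu6, of the major spliceosome, and Rnu7 were listed at 0 in both libraries, which means under 1 RPKM or no value. How reads shared by near-identical copies were counted is not given, so these zeros do not show that the RNAs were absent.

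**Figure D3:**
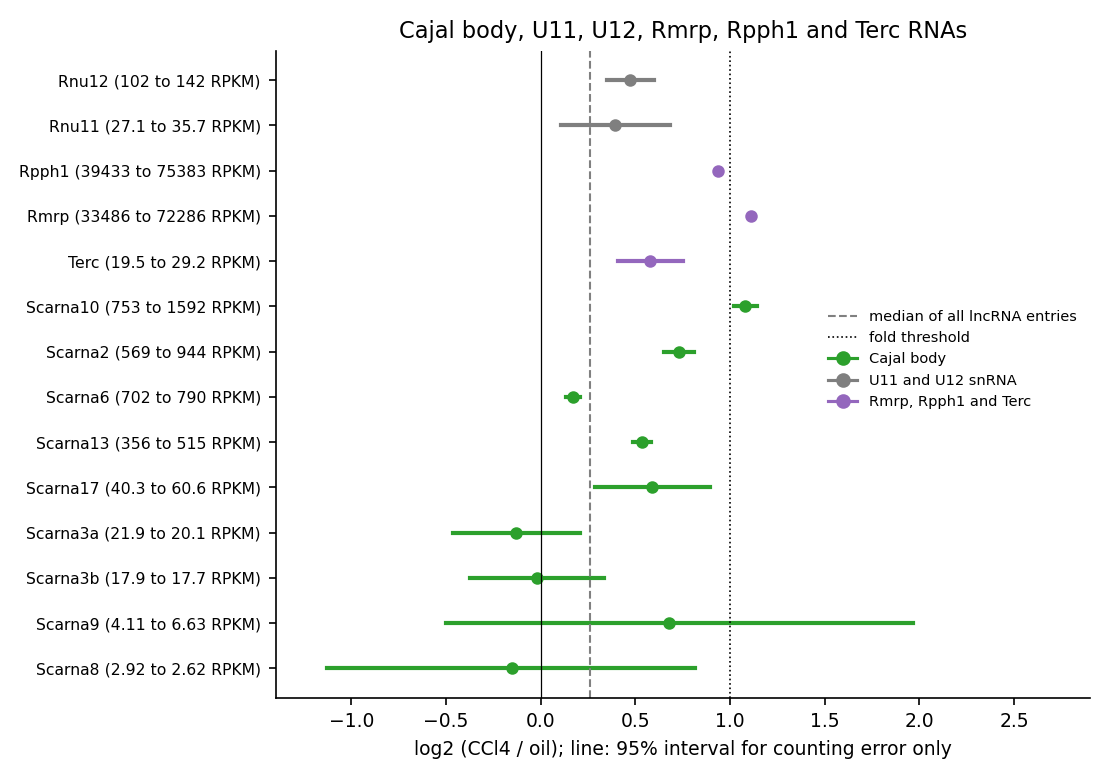
Log2 ratio of CCl4 to oil for the Cajal body RNAs, U11 and U12 (Rnu11, Rnu12), Rmrp, Rpph1 and Terc, with horizontal lines for the 95% interval from counting error alone and the RPKM in oil and CCl4 beside each name. Rmrp and Scarna10 lie right of the fold line at 1, Rpph1 just left of it, and the intervals of Scarna3a, Scarna3b, Scarna9 and Scarna8 cross 0.

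Since most of these RNAs are made from introns, each member was set beside the gene that contains it in the RefSeq annotation. Of the 126 symbols, 108 lay inside exactly 1 gene, 8 inside 2 or more and 10 inside none, among them Rmrp, Rpph1, Terc, Rnu11, Rnu12 and Scarna2, which have promoters of their own. The annotation used held no strand for the members, and whether each lies in an intron was not determined. For 76 members in 57 hosts both the member and its host were listed in both libraries.

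The hosts as a group were higher in CCl4 by more than their small RNAs. The 57 hosts had a median log2 ratio of 0.47, with 4 past the fold upward and 0 downward, beside 14.4% and 5.3% of mRNA transcripts. Of these hosts 7 were lncRNAs, among them 1 of the 4. After division by the median mRNA ratio the host median was 0.14, with 2 hosts higher and 1 lower, beside 7.5% and 9.74% of mRNA transcripts on that scale. The 76 members had a median of 0.19, and the median difference of member minus host was -0.20, with 55 of 76 members below their host. Across these members the ratios of member and host were related with a Pearson r of 0.39 and a Spearman rho of 0.41, a description across genes that share libraries and in part hosts, and genes are not independent replicates.

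Among hosts that encode ribosomal proteins the class medians also differed, although the classes lay mostly in different genes. The 20 such hosts had log2 ratios from 0.15 to 0.88, with a median of 0.60. The 17 C/D RNAs inside them had a median of 0.46 and a median difference to the host of -0.17, with 14 of the 17 below their host. The 11 H/ACA RNAs inside such genes had a median of -0.10 and a median difference to the host of -0.50, with 10 of the 11 below their host. The contrast was not seen within single hosts that held both classes. In Rps12, Snora33 was at 0.88 and Snord100 at 0.82. In Ncl, Snora75 was at 1.27 and Snord82 at 0.65, with overlapping intervals. In Eif4a2, Snora81 was at 0.05 and Snord2 at -0.30. In Snhg12, Snord99, at -0.92, lay below all the H/ACA RNAs of that host.

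Individual H/ACA RNAs differed in how far they lay from their host. Snora70 was at -0.61 while its host Rpl10 went from 352 to 457 RPKM, a log2 ratio of 0.37. Snora64 was at -0.14 while Rps2, the host with the highest mean over both libraries, went from 591 to 657 RPKM, a log2 ratio of 0.15. Snora33, at 0.88, equalled the 0.88 of Rps12, and Snora23, at -0.27, lay close to the -0.33 of Ipo7, a nuclear import receptor.

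Among the C/D RNAs in abundant hosts, Snord37 at 0.23 matched Eef2, which went from 470 to 539 RPKM, a log2 ratio of 0.20. Snord68 at 0.61 matched Rpl13, at 312 and 492 RPKM and 0.65. Snord17 at 0.47 lay below Snx5, an endosomal sorting nexin, at 1.34, and Scarna10 at 1.08 lay below Ncapd2, a condensin subunit, at 1.83. Hspa8, the constitutive heat shock protein that contains Snord14c and Snord14d, went from 679 to 437 RPKM, and both of its members were listed at 0.

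Levels of member and host came close in RPKM for some members and not for most, and whether reads came from the mature small RNA or from unspliced or other host RNA was not tested. In oil, 27 of the 76 members lay within 2-fold of their host, 27 above and 22 below that range. Among the near-equal ones, Snord37 was at 473 RPKM beside 470 for Eef2, and Snord68 at 318 beside 312 for Rpl13. The median log2 ratio of member minus host was -0.09 within 2-fold, -0.25 above that range and -0.27 below it. The Pearson r of member and host ratios was 0.43, 0.68 and 0.03 in these groups, again as a description across genes. The groups were set by levels in oil, which also enter the ratios, so the grouping itself can shift these values.

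**Figure D4:**
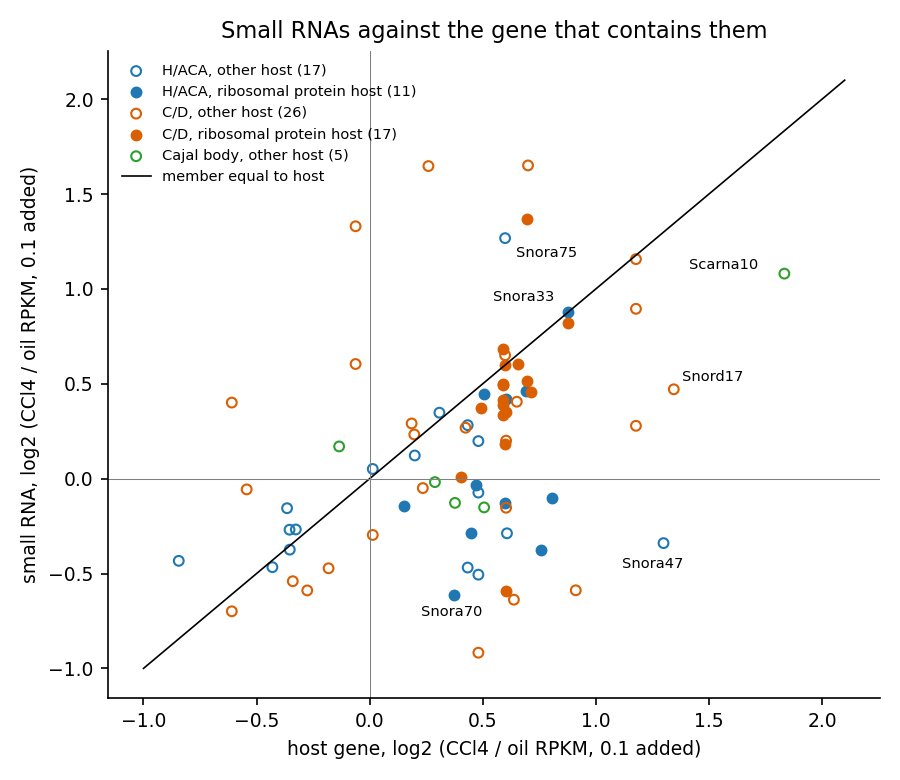
Log2 ratio of each member against that of the gene containing it, for 76 members with both listed in both libraries, where filled points mark ribosomal protein hosts and the line marks equal ratios. Of the 11 filled H/ACA points 10 lie below the line, as do 14 of the 17 filled C/D points and 55 of all 76 points.

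Genes that contain several members allow small RNAs annotated within 1 gene to be compared. Rpl13a went from 436 to 656 RPKM, a log2 ratio of 0.59. Its 4 C/D RNAs had ratios of 0.34 for Snord34, 0.42 for Snord33, 0.39 for Snord35a and 0.50 for Snord32a, a narrow range within overlapping intervals. Rpl23a had the same ratio of 0.59, with Snord4a at 0.50 and Snord42a at 0.68.

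The noncoding host Snhg12, a gene known mainly for its small nucleolar RNAs, showed a wider spread. It went from 5.86 to 8.22 RPKM, a log2 ratio of 0.48, while Snora16a was at -0.51, Snora61 at -0.07, Snora44 at 0.20 and Snord99 at -0.92. The intervals of Snora16a and Snora44 did not overlap, so these RNAs of 1 host differed by more than counting error. The noncoding 2410006H16Rik went from 16.3 to 37.0 RPKM, a log2 ratio of 1.18, with Snord49b at 0.90, Snord65 at 1.16 and Snord49a at 0.28, the last on 48 and 65 reads. Snhg16 contained Snord1b beside Snord1a and Snord1c, which were listed at 0, and Snhg14 contained no listed member.

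Other hosts with differing members were picked out after their values were seen. In Rps3, Snord15a was at 0.60 with an interval of 0.52 to 0.68, and Snord15b at 0.18 with an interval of 0.15 to 0.22. In Eif4a2, an RNA helicase of translation initiation, Snora81 was at 0.05 and Snord2 at -0.30, with separate intervals beside a host ratio of 0.01.

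Few genes of the particle proteins and of their assembly and transcription factors were past the fold. Of 58 genes of small RNA particles, their assembly and their transcription, 51 were listed in both libraries, 1 was past the fold upward and 0 downward, beside 14.4% and 5.3% of all mRNA transcripts. Their median log2 ratio was 0.18, against 0.32 over all mRNAs and 0.22 over the small RNAs, and whether these differ was not tested. The H/ACA core proteins were Dkc1, the pseudouridine synthase, at 2.73 and 2.83 RPKM, Gar1 at 1.94 and 2.76, Nhp2 at 16.2 and 18.3, and Nop10 at 57.4 and 40.4. Their log2 ratios ran from -0.51 for Nop10 to 0.49 for Gar1.

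The C/D core proteins lay at or below 0.05. Fbl, the methyltransferase fibrillarin, was at 12.3 RPKM in oil and 12.7 in CCl4, Nop56 at 10.3 and 9.83, Snu13 at 19.7 and 19.6 and Nop58 at 8.72 and 5.95, a log2 ratio of -0.54 for the last. Nop56 and Nop58 are hosts as well, and at ratios of -0.06 and -0.54 they held Snord57 at 0.60 and Snord110 at 1.33, and Snord11 at -0.06.

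The 9 protein subunits of RNase P and RNase MRP listed in both libraries had a median log2 ratio of 0.02, with a range from -0.67 for Pop5 to 0.53 for Pop7, beside 1.11 and 0.93 for the RNAs Rmrp and Rpph1. The 12 genes of RNA polymerase III and its regulators listed in both had a median of 0.25. Maf1, which represses RNA polymerase III, was the only particle gene past the fold, at 15.5 RPKM in oil and 32.8 in CCl4, a log2 ratio of 1.08, and it was not past the fold after division by the median mRNA ratio. The lists for the Cajal body and telomerase, the 7SK particle, snRNA transcription and particle assembly had medians of 0.45, 0.42, 0.31 and -0.03, with no gene past the fold.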

How the data were processed

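RNA-seq of total RNA had been done on 1 oil and 1 CCl4 hepatocyte library, grouped by the treatment labels. The authors deposited RPKM per transcript, and the submitters' processing notes name CASAVA 1.4, TopHat2 and mm10. Library selection, strand, counting program and annotation version are not given in the sources used here. Fold change, p and q columns of the authors' own comparison were not used. Values under 1 RPKM were listed at 0, as checked on the unannotated lncRNAs, where all 1328 oil and 1327 CCl4 values between 0 and 1 were listed at 0.

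The members and gene lists were chosen with earlier results of these data known. Symbols, lengths, coordinates and containing genes came from a RefSeq gene table of GRCm38.p6, the mm10 assembly, which matched 3563 of 3719 RefSeq noncoding entries. Hosts were to be taken on the same strand, but the table gave no strand for the members, so hosts were found without it. Library totals were solved from short genes under 400 bases, and 96.8% (oil) and 96.6% (CCl4) of these came out whole within 0.02 reads. Reads were recovered for 104 of 108 listed members, and RPKM of members shorter than the sequenced fragments depends on how such reads were counted. On simulated data of 200 genes, 100% of the 21 genes changed 4-fold with at least 100 reads expected were called. There, 95.0% of intervals held the true ratio. The simulated counts held counting error only, so this says nothing about spread between samples. The C/D RNAs and Snora75 past the fold rested on fewer reads than these 21 genes. No test across replicates was possible, so no p-value is given.

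Genes were named by rule: all Cajal body, Rnu, Rmrp, Rpph1 and Terc RNAs, the 6 highest, 6 most increased and 6 most decreased H/ACA and C/D RNAs, the 6 most abundant hosts and those with 3 or more members, core proteins and particle genes past the fold. Others serve as examples. Alternatives were the pseudocount, fold, scaling, level filters, 1 transcript per symbol, a listed 0 taken as 1 RPKM and sums without the top member. Restriction to a mean of 20 RPKM or to 100 bases and 1 median per host were added after seeing the data. Members without an entry, such as the 7SK RNA, were not analysed here. No sequences are printed. Analysis used Python 3.11.15, pandas 2.3.3 and scipy 1.17.1.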

Additional observations from a re-analysis of the deposited data

How the results depend on the processing

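Without replicates no spread between samples was available, counting intervals understate the error, and members of few reads carry wide ones. The 9 members past the fold upward became 1 at a log2 ratio of 2, 3 among members of at least 5 RPKM in both libraries, and 5 after division of the CCl4 library by the median mRNA ratio, which also gave 3 downward in place of 0. Shares over the whole table were not taken at the ratio of 2 or the 5 RPKM filter. The counts at those settings are thus no result about the members. Division by the median mRNA ratio moved the H/ACA median from -0.13 to -0.45, the host median from 0.47 to 0.14 and the count of particle proteins past the fold from 1 to 0. It moved the log2 ratio of summed RPKM to -0.30 for H/ACA, 0.036 for C/D, 0.35 for Cajal body RNAs, 0.13 for U11 and U12 and 0.69 for Rmrp, Rpph1 and Terc. Without the most abundant member these were 0.070, 0.32, 0.46 (H/ACA, C/D, Cajal body) and 1.11 (Rmrp, Rpph1 and Terc). The shift by division follows from its construction, and the cause of the other moves was not tested. Of the other alternatives for these summaries, 37 stayed within their range, although the C/D median came to 0.01 after the division and the Cajal body median to -0.02 at 100 bases or more. No paired analysis was possible because each group had 1 library and the labels share no replicate numbers beyond it.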
